A study of Mus musculus with 42 samples.

Results

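The chemokine ligand genes were taken as every gene symbol of the RNA-seq count files that is Ccl or Cxcl followed by a number, with a letter allowed after a Ccl number, together with Cx3cl1 and Xcl1. The rule found 39 members among 24466 gene symbols. The counts came from 8 mouse RNA libraries. Of these, 3 were from iPax7 cells grown with doxycycline (+Dox), 2 were from iPax7 cells 3 days after Dox was withdrawn (-Dox), and 3 were from satellite cells, the resident stem cells of skeletal muscle. iPax7 cells are myogenic precursors made from a mouse embryonic stem cell line in which Dox switches on Pax7. They were sorted as PDGFαR+Flk-1- cells during embryoid body differentiation and then kept with 0.75 µg/ml Dox, by the treatment label. For the -Dox group, iPax7 cells were washed and moved to medium without Dox, and both iPax7 groups were grown with fibroblast growth factor. The satellite cells were isolated from mouse skeletal muscle by a Pax7-ZsGreen reporter, and their treatment label reads in vivo. The sources used here give neither the age of the mice nor whether replicates were separate cultures or animals, so p-values measure the spread between these libraries, which may be technical.

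Chemokines are small secreted proteins that attract leukocytes through G protein-coupled receptors. They are grouped as CXC, CC, C and CX3C ligands by the spacing of their first cysteines, and many lie in gene clusters in which neighbouring copies share a receptor. In skeletal muscle, chemokines bring neutrophils and monocytes to injured tissue, and Cxcl12 is known to guide migrating muscle precursors that carry its receptor Cxcr4.

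Satellite cells held far more chemokine transcript than either iPax7 group, and most of it came from Cxcl1, a ligand of the neutrophil receptor Cxcr2. The members summed to between 0.433% and 0.492% of all gene counts in the satellite libraries, against 0.00405% to 0.00437% in +Dox and 0.00694% to 0.0094% in -Dox. Cxcl1 alone made up 79.4% to 84.1% of the members' sum in satellite cells. Without Cxcl1, the members still summed to 36275 to 51000 normalized counts in the satellite libraries, against 1339 to 1460 in +Dox and 3005 to 3952 in -Dox. Normalized counts are read counts scaled by TMM effective library sizes to the geometric mean size of the 8 libraries.

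A member was called where its adjusted p (edgeR's quasi-likelihood test, Benjamini-Hochberg over all genes tested) was under 0.05 and its change was at least 2-fold. In -Dox against +Dox, Ccl2, Ccl7 and Cxcl5 rose, so that 3 members were called higher and 0 lower, where 4.63% of all genes tested were called higher and 3.01% lower. At an unadjusted p under 0.05 there were 6 members higher and 0 lower, and DESeq2 called 6 higher and 0 lower. In satellite cells against +Dox, 19 members were higher and 0 lower (23.9% and 18.2% of all genes tested). An unadjusted p under 0.05 gave 21 higher and 1 lower there, and DESeq2 called 17 higher and 0 lower. In satellite cells against -Dox, 17 were higher and 1, Ccl25, was lower (20.4% and 17.2% of all genes tested). Libraries did not overlap for 6 members higher and 3 lower in -Dox against +Dox (22.7% and 22.7% of all genes tested). The numbers were 20 and 3 in satellite cells against +Dox (30.2% and 26.3%), and 19 and 2 against -Dox (33.7% and 30.6%). They are counted over all 39 members, whereas the shares are over the genes tested. Ccl19 and Xcl1, which were not tested, are among both the 20 and the 19. These 3 comparisons share libraries, so their counts are not independent. Of the 39 members, 26 had enough reads to be tested. Most of those passed through the satellite libraries, where they are high, and so the counts do not speak for the members that were not tested.

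A count was found in 30 members in at least 1 satellite library, in 16 in +Dox and in 15 in -Dox. There were 14 members counted in satellite cells only, namely Ccl3, Ccl4, Ccl6, Ccl8, Ccl9, Ccl12, Ccl19, Ccl22, Ccl24, Cxcl9, Cxcl11, Cxcl14, Cxcl17 and Xcl1. A count of 0 allows up to 3 counts in a library, and where a group was at 0 in every library the fold is given as a lower bound against 3 counts per library. No read was counted in any library for 7 members, Ccl1, Ccl21a, Ccl21b, Ccl21c, Ccl26, Ccl27b and Ccl28. Ccl21a, Ccl21b and Ccl21c are near-identical copies, as are Ccl27a and Ccl27b, and reads that aligned to several places were set aside in the counting, so the values of these genes are uncertain.

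**Figure D1:**
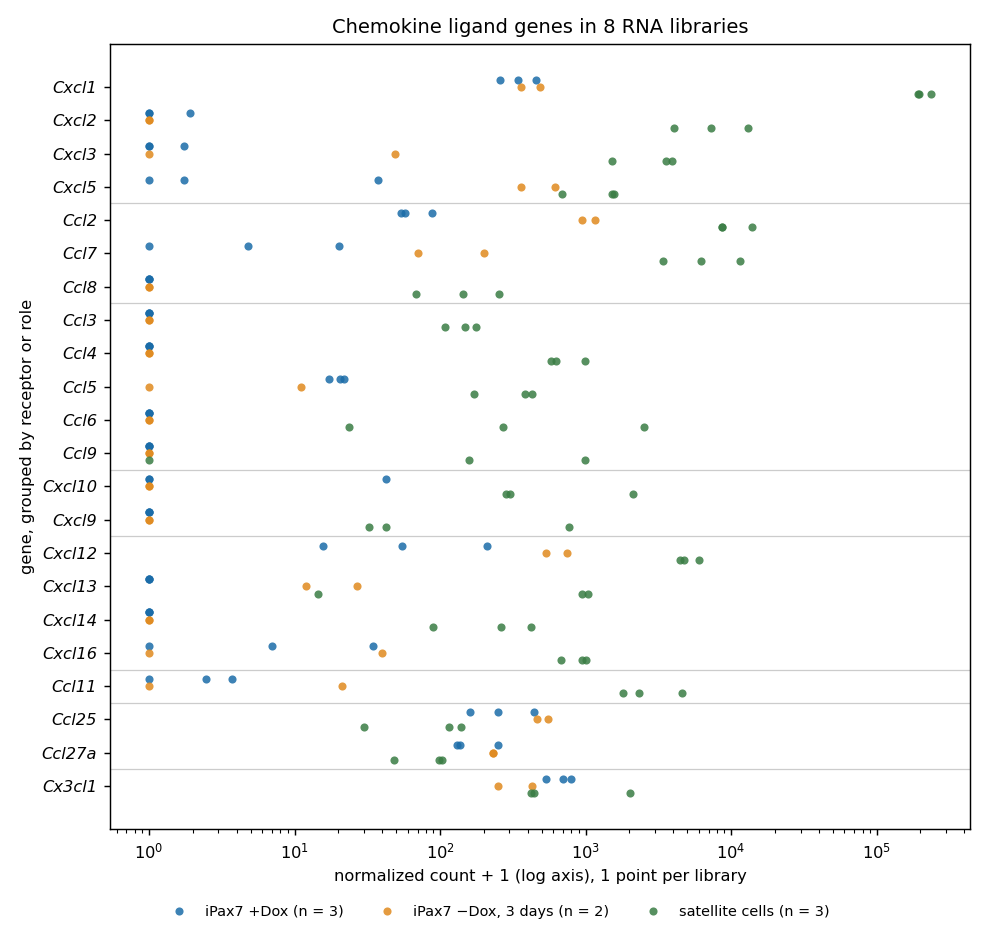
Normalized counts plus 1 on a log axis for the 22 members with a mean of at least 50 in any group or a call in any comparison, with 1 point per library and lines between role groups. Cxcl1 stood at 191874 to 237708 in satellite cells against 257 to 482 in iPax7 cells, Ccl2 was lowest in +Dox and highest in satellite cells, and Ccl25 and Ccl27a were lower in satellite cells than in +Dox cells in every library.

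Depth was lower in satellite libraries, at 39010958 to 43811197 gene counts, than in iPax7 libraries, at 48203901 to 54674619, and normalized counts are scaled for library size. Reads that aligned to several places made up 23.6% to 30.7% of the satellite libraries and 7.11% to 7.6% of the iPax7 libraries. The median log2 fold change over all genes was 0.17 in satellite cells against +Dox and 0.23 against -Dox, which is small beside the differences below. Pax7 itself stood at 11610 to 14130 normalized counts in +Dox, 221 and 270 in -Dox and 3926 to 8504 in satellite cells. All 8 differentiation markers, such as Myog and Acta1, rose on withdrawal. Satellite libraries also held markers of other cells of muscle. The 12 macrophage and monocyte markers summed to 4663 to 16647 normalized counts in satellite cells against 273 to 516 in +Dox and 308 to 416 in -Dox. The 6 neutrophil markers summed to 149 to 11782 in satellite cells against 0 to 12.0 in iPax7 cells, and the 10 lymphocyte markers to 530 to 1525 against 0 to 24.0. Endothelial markers summed to 18581 to 24957 against 114 to 952, and fibro-adipogenic markers to 48629 to 89137 against 2513 to 10678. The fibro-adipogenic sum includes Cd34, at 11597 to 16637 in satellite cells, which the paper names among surface markers that may matter for satellite cells. It also includes Ly6a, whose mean was 5063 in +Dox and 2623 in satellite cells. No listed marker of these 5 cell types was at 0 in all 3 satellite libraries. Of the macrophage and monocyte markers, Ptprc, Adgre1, Itgam, C1qa, C1qb and Tyrobp were at 0 in every iPax7 library. The others, Cd68, Csf1r, Lyz2, Cd14, Fcer1g and Mrc1, were counted in at least 1 iPax7 library. Cd68 stood at 158 to 464 and Cd14 at 38.6 to 113 over the iPax7 libraries. Tested against +Dox, 9 of 10 macrophage, 5 of 6 neutrophil, 7 of 8 lymphocyte, 8 of 8 endothelial and 6 of 8 fibro-adipogenic markers were higher in satellite cells. So were 6 of 7 pericyte and 5 of 5 Schwann cell markers, where 23.9% of all genes tested were. Against -Dox it was 7 of 10, 4 of 6, 3 of 8, 8 of 8, 6 of 8, 5 of 7 and 3 of 5 in the same order (20.4% of all genes tested). There, 1 pericyte marker was lower. The pericyte and smooth muscle markers summed to 54662 to 54802 in -Dox and 32538 to 49506 in satellite cells. The -Dox sum was almost wholly Acta2, at 53987 and 53844, which stood at 3707 to 14637 in satellite cells. Every other marker of that list had a higher mean in satellite than in -Dox cells, such as Rgs5, at 45.0 and 40.6 in -Dox and 9683 to 18483 in satellite cells. The part of these cell types in the chemokine values was not tested. Cell source and library preparation cannot be told apart between satellite and iPax7 cells. In bulk RNA, fewer cells of a type and less RNA per cell cannot be told apart either.

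Cxcl1, Cxcl2, Cxcl3 and Cxcl5 lie at chr5:91188325-91334935 of NCBIM37 and encode ligands of Cxcr2 that draw neutrophils. The promoters of the first 3 are shown because these genes were high together in satellite cells, beside those of Cxcl10, an interferon-inducible ligand, and Cxcl12, a ligand of a different kind. Each is 300 bases, from 250 before to 50 after the start site, as RefSeq gives them on GRCm38.p6. They lie at chr5:90890995-90891294, chr5:90903649-90903948 and chr5:90785851-90786150 on the plus strand, chr5:92348840-92349139 on the minus strand and chr6:117168285-117168584 on the plus strand. Capitals mark matches, on either strand, to the NF-kappaB consensus, to TATAAA and to the core of the interferon-stimulated response element (ISRE).
Cxcl1: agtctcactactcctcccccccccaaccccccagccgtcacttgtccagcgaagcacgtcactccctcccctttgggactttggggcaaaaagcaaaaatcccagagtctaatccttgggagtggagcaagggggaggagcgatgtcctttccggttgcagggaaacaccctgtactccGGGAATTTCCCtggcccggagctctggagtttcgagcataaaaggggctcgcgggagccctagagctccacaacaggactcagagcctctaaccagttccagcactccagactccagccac
Cxcl2: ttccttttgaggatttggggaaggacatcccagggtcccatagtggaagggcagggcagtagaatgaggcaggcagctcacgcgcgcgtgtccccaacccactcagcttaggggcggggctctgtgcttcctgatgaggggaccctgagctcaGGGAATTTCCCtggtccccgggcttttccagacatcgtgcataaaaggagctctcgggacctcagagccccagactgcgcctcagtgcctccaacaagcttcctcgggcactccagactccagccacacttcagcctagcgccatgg
Cxcl3: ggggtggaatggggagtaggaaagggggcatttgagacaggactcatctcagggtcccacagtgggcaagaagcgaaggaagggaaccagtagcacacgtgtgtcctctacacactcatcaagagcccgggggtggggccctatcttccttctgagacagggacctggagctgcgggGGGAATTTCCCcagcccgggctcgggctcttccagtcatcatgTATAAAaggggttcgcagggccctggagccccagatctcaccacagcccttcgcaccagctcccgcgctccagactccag
Cxcl10: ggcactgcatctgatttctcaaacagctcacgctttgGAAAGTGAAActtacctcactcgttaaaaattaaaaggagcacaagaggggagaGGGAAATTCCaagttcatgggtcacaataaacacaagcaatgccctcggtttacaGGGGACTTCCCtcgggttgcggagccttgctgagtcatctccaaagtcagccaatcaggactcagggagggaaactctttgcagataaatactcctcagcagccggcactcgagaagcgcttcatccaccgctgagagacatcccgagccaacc
Cxcl12: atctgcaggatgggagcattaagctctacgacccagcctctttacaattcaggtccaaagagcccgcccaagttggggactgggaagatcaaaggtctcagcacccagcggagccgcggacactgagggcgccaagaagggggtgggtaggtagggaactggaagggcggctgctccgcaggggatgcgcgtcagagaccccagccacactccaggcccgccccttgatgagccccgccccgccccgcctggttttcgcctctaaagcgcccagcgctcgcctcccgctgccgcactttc
In Cxcl1, Cxcl2 and Cxcl3 the same 11 bases, GGGAATTTCCC, matched the NF-kappaB consensus, 71, 97 and 73 bases before the start. The 11 bases hold overlapping matches on both strands, which were counted as 1 stretch. Cxcl10 held 2 such stretches and 1 ISRE core, and Cxcl12 held none of the 3 motifs. TATAAA was found in Cxcl3 only among these 5. The promoter table holds 27 of the 39 members, with 33 promoters in all. An NF-kappaB match was found in 8 of the 33, those of Ccl1, Ccl9, Ccl20, Ccl27a, Cxcl1, Cxcl2, Cxcl3 and Cxcl10, where 8.46% of all 32851 promoters in the table held one. TATAAA was found in 10 of the 33 (13.6% of all promoters), and the ISRE core in 3, those of Ccl19, Cxcl10 and Cxcl14 (3.44% of all promoters). Ccl2, Ccl4, Ccl5, Ccl7, Ccl11, Ccl21c, Ccl24, Ccl26, Cxcl5, Cxcl11, Cxcl16 and Cxcl17 have no entry in the table. A match is a run of letters and does not show that a factor binds there.

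Cxcl1 was counted at 341, 257 and 457 in the +Dox libraries, 360 and 482 in the -Dox libraries, and 196142, 191874 and 237708 in the satellite libraries. The 2 iPax7 groups overlapped, and the satellite libraries lay far above both. The difference between satellite and +Dox cells was 593-fold (log2 fold change 9.21, SE 0.37, edgeR's quasi-likelihood test, adjusted p = 1.36e-06), and withdrawal of Dox gave a log2 fold change of 0.26 (SE 0.29, adjusted p = 0.701 in the same test). By read count, Cxcl1 ranked 17 to 22 among all genes in the satellite libraries and 7543 to 8899 in the iPax7 libraries. Per kb of exon it ranked 5 to 8 of 20660 genes in satellite cells.

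Cxcl2 and Cxcl3, whose products act on the same receptor, were close to absent in iPax7 cells. Cxcl2 stood at 4080, 7245 and 12993 normalized counts in satellite cells, and the only iPax7 signal was 0.91 in 1 +Dox library. Cxcl3 stood at 1527, 3926 and 3597 in satellite cells, 0.74 in 1 +Dox library and 47.8 in 1 of the 2 -Dox libraries. Both were higher in satellite cells than in +Dox cells (log2 fold changes 14.35 and 12.94, edgeR's quasi-likelihood test with adjusted p = 1.45e-05 and 0.000261). With so few reads in +Dox the ratio is loose, at 30650-fold with an exact counting interval of 5500 to 1.211e+06 for Cxcl2. The Cxcl3 value in -Dox cells rested on 1 library, since the log2 fold change of 5.96 against +Dox (adjusted p = 0.0606) turned to -1.65 without that library.

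Cxcl5 behaved differently, since it rose on withdrawal. It was counted at 0, 0.74 and 36.4 in +Dox, 361 and 611 in -Dox, and 683, 1571 and 1514 in satellite cells. No -Dox library overlapped the +Dox libraries, and the rise was 39.2-fold (log2 fold change 5.32, SE 1.39, edgeR's quasi-likelihood test with adjusted p = 0.0476). The call was lost without any 1 of 7 libraries, that is each -Dox library, each satellite library and +Dox libraries 1 and 2, with an adjusted p of 0.0572 to 0.169. Without +Dox library 3 it was 0.00151. Satellite cells exceeded +Dox cells 101-fold (log2 fold change 6.69, SE 1.43, adjusted p = 0.0047 by the same test). Satellite and -Dox cells differed by a log2 fold change of 1.37 (SE 1.28, adjusted p = 0.419), which missed the threshold although the libraries did not overlap. Cxcl15, a lung-enriched relative, was counted in 1 -Dox library only, at 5 reads.

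Among the ligands of the monocyte receptor Ccr2, Ccl2 and Ccl7 rose on withdrawal and were higher again in satellite cells. Ccl2, the main monocyte attractant, stood at 56.3, 53.3 and 87.4 in +Dox, 946 and 1152 in -Dox, and 13814, 8644 and 8665 in satellite cells. The 3 groups did not overlap. The rise on withdrawal was 15.97-fold (log2 fold change 4.00, SE 0.35, edgeR's quasi-likelihood test with adjusted p = 0.000194), and satellite cells exceeded -Dox cells 9.89-fold (log2 fold change 3.31, SE 0.38, adjusted p = 0.000244) and +Dox cells 158-fold (log2 fold change 7.30, SE 0.39, adjusted p = 4.89e-06). Ccl2 was the only member whose call on withdrawal held under all 14 alternatives tried, with adjusted p values up to 0.00245.

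Ccl7, the neighbour of Ccl2 on chromosome 11, stood at 3.76, 0 and 19.1 in +Dox, 69.8 and 199 in -Dox, and 11476, 3394 and 6197 in satellite cells. The groups did not overlap, and Ccl7 rose 17.7-fold on withdrawal (log2 fold change 4.19, SE 1.01, edgeR's quasi-likelihood test with adjusted p = 0.0357). The call was lost without +Dox library 1 or 2, either -Dox library, or satellite library 3 (adjusted p 0.0546 to 0.216), and when replicate numbers were fitted as a block (adjusted p = 0.0683) or only these 2 groups were fitted (0.132). In satellite cells it was 921-fold higher than in +Dox cells (adjusted p = 0.0002) and 52.2-fold higher than in -Dox cells (adjusted p = 0.00383), by the same test. Ccl8 was not counted in iPax7 cells and stood at 251, 67.0 and 144 in satellite cells, at least 64.1-fold above +Dox (adjusted p = 0.00395 by edgeR's quasi-likelihood test). The call of Ccl8 against -Dox (adjusted p = 0.0104) was lost without -Dox library 1 (0.0512) or 2 (0.0505), and with the replicate block (0.051). Ccl12, the other Ccr2 ligand, was counted at 108, 24.1 and 0 in satellite cells and passed the threshold in no comparison.

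**Figure D2:**
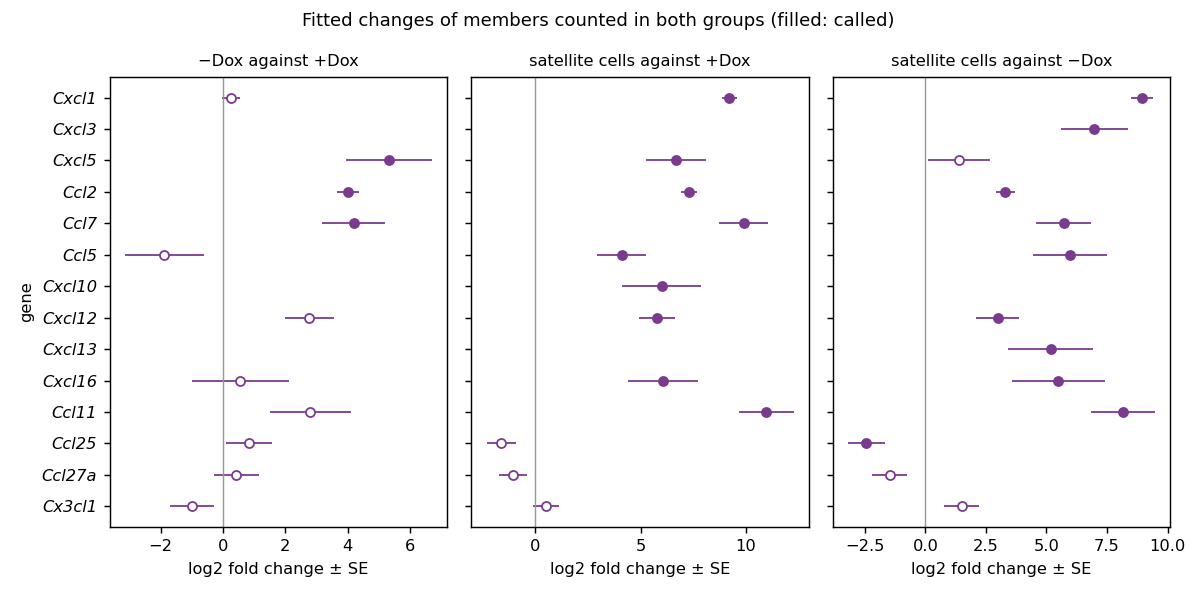
Fitted log2 fold changes with standard errors for members with more than 3 counts in both groups of a comparison, in 3 panels, with filled points for called members. Ccl2, Ccl7 and Cxcl5 were called on withdrawal of Dox, most members lay far to the right in the satellite cell panels, and Ccl25 and Ccl27a lay to the left of 0 in both of those.

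Ccl3, Ccl4, Ccl5, Ccl6 and Ccl9, which attract leukocytes, were all higher in satellite cells than in +Dox cells. Ccl6 and Ccl9 were the most uneven between the satellite libraries. Ccl3 stood at 147, 107 and 175 in satellite cells and Ccl4 at 994, 578 and 621, and neither was counted in iPax7 cells. Ccl3 was at least 59.7-fold and Ccl4 at least 304-fold above +Dox (edgeR's quasi-likelihood test with adjusted p = 0.0034 and 0.000235). When replicate numbers were fitted as a block, the call of Ccl3 against -Dox (adjusted p = 0.00902) was lost (0.0548). Ccl5 was counted at 19.5, 16.3 and 20.9 in +Dox, 0 and 10.2 in -Dox, and 384, 425 and 170 in satellite cells, with no overlap between satellite and iPax7 libraries. It was 17.3-fold higher in satellite than in +Dox cells (log2 fold change 4.10, SE 1.15, edgeR's quasi-likelihood test with adjusted p = 0.0169), and the call was lost without +Dox library 1 (0.0543) or 2 (0.0592).

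Ccl6 and Ccl9, which lie beside each other on chromosome 11, differed most between the satellite libraries among these 5 ligands. Ccl6 stood at 2513, 22.8 and 268 and Ccl9 at 989, 0 and 158 in satellite libraries 1, 2 and 3. Neither was counted in iPax7 cells. Satellite library 1, which held the most of both, also held the highest sums of macrophage markers (16647, against 4663 and 7328) and of neutrophil markers (11782, against 1429 and 149), and the part of those cells was not tested. Ccl6 was called against +Dox (adjusted p = 0.00791 by edgeR's quasi-likelihood test) and against -Dox (0.0198), the latter lost without -Dox library 1 (0.0777) or 2 (0.0749). Ccl9 was called against +Dox (0.0226), lost without +Dox library 3 (0.0584), and missed the threshold against -Dox (0.0505). Its satellite libraries overlapped both iPax7 groups at 0. The difference from -Dox cells was called in 7 of 12 alternatives. Among them were the fits without +Dox library 2 (0.0485), without satellite library 2 (0.00947), with a replicate block (0.032), with no filter on low counts (0.0326) and by DESeq2 (0.0271).

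**Figure D3:**
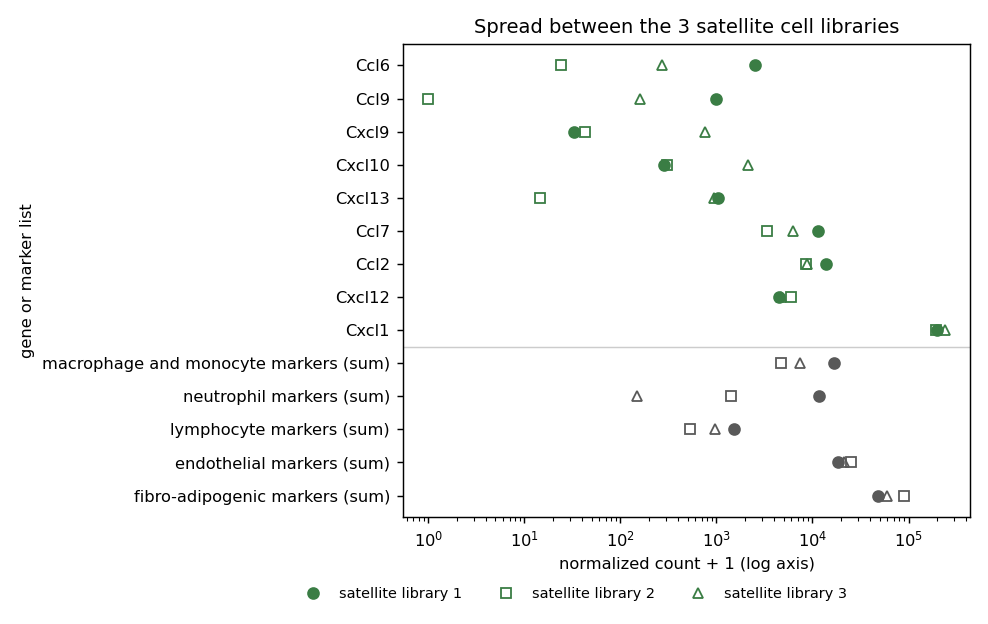
Normalized counts plus 1 on a log axis in each of the 3 satellite libraries for 9 members (green) and for the summed counts of 5 marker lists (grey). Cxcl1, Ccl2 and Cxcl12 differed little between libraries, whereas Ccl6 and Ccl9 were highest in library 1, Cxcl9 and Cxcl10 in library 3, and Cxcl13 was low in library 2.

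Cxcl9, Cxcl10 and Cxcl11 are induced by interferon and act on Cxcr3, a receptor of activated T cells. Cxcl10 stood at 282, 303 and 2118 in satellite cells, 0, 41.5 and 0 in +Dox, and 0 in both -Dox libraries. Cxcl9 stood at 31.6, 41.6 and 765 in satellite cells and was not counted in iPax7 cells. Both were highest in satellite library 3, so the spread among satellite libraries was as large as their mean. Cxcl10 was called against +Dox (65.2-fold, adjusted p = 0.0296 by edgeR's quasi-likelihood test), and the call was lost without satellite library 3 (0.136), +Dox library 1 (0.0561) or +Dox library 3 (0.0661) and by DESeq2 (0.0794). Against -Dox, the calls of Cxcl9 and Cxcl10 (adjusted p = 0.0235 and 0.0178) were lost without satellite library 3 (0.0553 and 0.0502), -Dox library 1 (0.0902 and 0.0825) or -Dox library 2 (0.0879 and 0.0803). Cxcl11 reached 23.7 and 25.5 in 2 satellite libraries and was not called.

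Cxcl12, the ligand of Cxcr4 and of the scavenging receptor Ackr3, was lowest in +Dox cells and highest in satellite cells, with no overlap between the 3 groups. It stood at 210, 54.1 and 14.6 in +Dox, 538 and 739 in -Dox, and 4444, 6044 and 4714 in satellite cells. The -Dox mean was 6.87-fold above the +Dox mean, which missed the threshold (log2 fold change 2.77, SE 0.79, edgeR's quasi-likelihood test with adjusted p = 0.0673), but passed it without +Dox library 1 (0.00763), with no filter on low counts (0.0459) and by DESeq2 (0.00287). Satellite cells exceeded +Dox cells 54.5-fold (adjusted p = 0.000697) and -Dox cells 7.94-fold (adjusted p = 0.0244), the latter call lost without either -Dox library (0.143 and 0.102) or satellite library 2 (0.0508).

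Of the other CXC ligands, Cxcl13 attracts B cells, Cxcl14 is made by many epithelia and fibroblasts, and Cxcl16 is a membrane-bound ligand of Cxcr6. Cxcl13 was absent in +Dox, counted at 25.7 and 11.1 in -Dox, and stood at 1041, 13.4 and 944 in satellite cells, where library 2 overlapped the -Dox libraries. It was called against +Dox (adjusted p = 0.00327 by edgeR's quasi-likelihood test), and its call against -Dox (0.0493) was lost without 6 of the 8 libraries, all but +Dox library 2 and satellite library 2 (up to 0.209), in the fit of only these 2 groups (0.0552) and with the replicate block (0.253). Cxcl14 stood at 421, 88.5 and 261 in satellite cells and was not counted in iPax7 cells, a difference of at least 107-fold from +Dox (adjusted p = 0.00213). Cxcl16 was steady in satellite cells, at 1004, 681 and 938, against 6.01, 0 and 33.7 in +Dox and 38.6 and 0 in -Dox. It was 66.1-fold higher than in +Dox cells (adjusted p = 0.0153), a call lost without +Dox library 1 (0.0549), and 45.3-fold higher than in -Dox cells (adjusted p = 0.0475), a call lost without 5 of the 8 libraries, +Dox library 1, -Dox library 2 and each satellite library (0.0603 to 0.141). Exons of Cxcl16 overlap those of Zmynd15, and those of Cxcl10 overlap Art3, on the opposite strand in NCBIM37, and the sources used here do not say whether counting used strand, so part of these counts may belong to the partners. Cxcl17 had 6 and 1 reads in 2 satellite libraries.

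Ccl11, the eosinophil attractant eotaxin that acts through Ccr3, was among the most abundant CC ligands of satellite cells. It stood at 4588, 2334 and 1816 in satellite cells, 0, 1.48 and 2.73 in +Dox, and 20.2 and 0 in -Dox. The satellite libraries lay far above the rest, with log2 fold changes of 10.96 against +Dox (SE 1.29, edgeR's quasi-likelihood test with adjusted p = 0.000198) and 8.15 against -Dox (SE 1.33, adjusted p = 0.00136). Among the other ligands of type 2 responses, Ccl17 was counted at 38.3, 21.5 and 20.0 in +Dox, 8.27 and 16.6 in -Dox and 0, 0 and 18.5 in satellite cells and was not called. Ccl22 and Ccl24 each rested almost wholly on 1 satellite library, at 59.0 and 88.2.

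Of the 9 ligands of lymphoid organs, mucosa and skin, 3 were tested, and Ccl25 alone was called, lower in satellite than in -Dox cells. Ccl25, a thymus and gut ligand of Ccr9, stood at 159, 250 and 443 in +Dox, 466 and 555 in -Dox, and 29.0, 138 and 115 in satellite cells. It was the only member called lower in satellite cells, 5.43-fold below -Dox (log2 fold change -2.44, SE 0.76, edgeR's quasi-likelihood test with adjusted p = 0.0296), and the call was lost without -Dox library 1 (0.0918) or 2 (0.119). Against +Dox the difference missed the threshold (log2 fold change -1.60, SE 0.69, adjusted p = 0.0865), although no library overlapped. Ccl27a, a skin ligand of Ccr10, stood at 129, 137 and 248 in +Dox, 230 and 230 in -Dox, and 47.4, 97.9 and 103 in satellite cells, with adjusted p values of 0.222 and 0.131 against the 2 iPax7 groups. Its exons overlap Il11ra1 on the opposite strand, and the reads of that gene cannot be told apart from its own without strand. Ccl20 was counted in 2 +Dox libraries only, at 15.8 and 18.5, and Ccl19 at 3.95, 2.68 and 27.7 in satellite cells only.

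Cx3cl1, or fractalkine, is a membrane-tethered ligand of Cx3cr1 on monocytes and microglia, and it was the most abundant member by normalized counts in +Dox cells, at 701, 789 and 534. It stood at 250 and 427 in -Dox and at 2012, 441 and 419 in satellite cells. Satellite library 1 lay above all others and the remaining 2 lay below every +Dox library, so that the log2 fold change of 0.51 against +Dox (SE 0.62, edgeR's quasi-likelihood test with adjusted p = 0.534) turned to -0.65 without library 1. On withdrawal it did not overlap +Dox and was 1.99-fold lower, which missed the threshold (adjusted p = 0.488). Xcl1 had 7, 1 and 5 reads in satellite cells.

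Per kb of merged exon and scaled to effective library size, Cxcl1 stood at 4628 ± 562 (SD, n = 3) in satellite cells. Ccl2 followed at 193 ± 55.4, Ccl7 at 185 ± 108, Cxcl2 at 93.7 ± 52.2, Cxcl3 at 63.2 ± 27.3 and Ccl11 at 56.9 ± 28.8. Apart from Cxcl1, neighbours among these 6 lay within each other's spread. In -Dox cells the order on the same scale was Ccl2 (19.5), Cxcl1 (9.34), Cxcl5 (6.21), Ccl25 (4.04) and Ccl7 (3.55), and in +Dox cells it was Cxcl1 (7.80), Cx3cl1 (3.85), Ccl25 (2.25), Ccl27a (1.52) and Ccl2 (1.22).

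Of the 18 receptors listed, 10 were at 0 in every +Dox library and 12 in both -Dox libraries, against 3 in all satellite libraries. Cxcr4 was counted at 225, 227 and 224 in +Dox, 27.6 and 36.0 in -Dox, and 936, 1692 and 1873 in satellite cells. It fell 7.09-fold on withdrawal (log2 fold change -2.82, edgeR's quasi-likelihood test with adjusted p = 0.00769). Ackr3, which binds Cxcl12 and removes it, stood at 1147 to 1413 in +Dox and at 27238, 35229 and 39616 in satellite cells, 26.9-fold higher. Of the 18 receptors, 10 were tested, and 1 was lower on withdrawal (2 at an unadjusted p under 0.05 and 2 by DESeq2), where 3.01% of all genes tested were. In satellite cells 6 were higher than in +Dox cells (Ccr1, Ccr2, Ccr7, Ccr8, Cxcr4 and Cxcr5), where 23.9% of all genes tested were. Against -Dox cells 3 were higher (20.4% of all genes tested). Ccr8 stood at 34.2, 32.2 and 1.32 and Cxcr5 at 103, 107 and 7.91 in the satellite libraries. Cxcr3, the receptor of Cxcl9 to Cxcl11, was counted in all 3 +Dox libraries and in neither -Dox library, which missed the threshold (adjusted p = 0.0648). Cxcr2, the receptor of the neutrophil ligands, reached 13.2 and 1.32 in 2 satellite libraries, Cxcr1 was at 0 in every library, and the Ccl11 receptor Ccr3 was at 0 as well. Ccr2, the receptor of Ccl2 and Ccl7, stood at 237, 0 and 104 in satellite cells and at 0 in iPax7 cells. Of the 5 atypical receptors, which bind chemokines without G protein signalling, Ackr1, Ackr2, Ackr3 and Ccrl2 were called higher in satellite cells than in either iPax7 group. Ackr4 stood at 93.1, 76.3 and 1.82 in +Dox, 47.8 and 81.2 in -Dox, and 6.58, 0 and 65.9 in satellite cells and was not called.

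NF-kappaB and interferon factors act upstream of many chemokines, and most genes of both lists were higher in satellite cells than in +Dox cells. In that comparison, 23.9% of all genes tested were called higher and 18.2% lower. On withdrawal the shares were 4.63% higher and 3.01% lower. Of 17 NF-kappaB pathway genes, 15 were higher and 1, Ikbkg, was lower in satellite than in +Dox cells (median log2 fold change 3.39, against 0.17 over all genes), while 0 were called on withdrawal (median -0.17, 2 higher and 3 lower at an unadjusted p under 0.05, 1 and 1 by DESeq2). Nfkbia, an inhibitor that is itself a target of the pathway, stood at 83811, 39077 and 49928 in satellite cells against 1064 to 2401 in +Dox. Icam1, Traf1 and Birc3 were also higher, by log2 fold changes of 7.61, 5.62 and 5.30. Of 19 interferon response genes tested, 17 were higher and 1, Ifngr2, was lower (median 4.46), with Usp18, Irf7, Ifit3 and Oasl2 showing the largest log2 fold changes of the list (6.79, 6.69, 6.46 and 6.15), and 0 were called on withdrawal (median -0.23, 2 higher and 1 lower at an unadjusted p under 0.05, 1 and 1 by DESeq2). Of 13 inflammatory cytokines and receptors tested, 11 were higher in satellite than in +Dox cells, and Il1b, Csf2, Il1rn and Tnf, all at 0 in iPax7 cells, had the largest fitted changes. Il1b stood at 1020, 617 and 104 in satellite cells, Csf2 at 182, 166 and 852, Il1rn at 453, 275 and 0, and Tnf at 348, 323 and 25.1. Against -Dox the leading genes also included Tnfrsf1b, at least 570-fold higher, with Rel in the NF-kappaB list (log2 fold change 5.47) and Rsad2 in the interferon list (at least 247-fold). On withdrawal 1 of the 13, Osmr, rose and 1, Tnfrsf1a, fell. Some members of these lists are also made by leukocytes, whose markers were present in the satellite libraries as given above.

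Peaks of open chromatin (ATAC-seq) and of histone marks were compared with the start sites of 38 members annotated on NCBIM37, the build of the peak files. The replicates had been merged before ATAC-seq and histone mark peaks were called, so there is no replicate and no test. Fewer members than genes in general had an ATAC-seq peak within 1 kb of a start site. There were 12 of 38 (31.6%) in +Dox cells against 65.6% of 20660 genes, 12 after 12 h without Dox against 63.7%, 15 (39.5%) after 24 h against 66.8%, 17 (44.7%) after 3 days against 68.2%, and 13 (34.2%) in satellite cells against 60.8%. The peak sets hold 90464 to 172103 peaks, the most at 3 days and the fewest in satellite cells.

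Ccl2 and Ccl7, which rose on withdrawal, had promoter peaks whose fold enrichment over background was higher at each later time after withdrawal. At Ccl2 it was 5.08 in +Dox, 7.83 at 12 h, 12.8 at 24 h and 12.9 at 3 days, and 13.7 in satellite cells. Ccl7 had no peak in +Dox and one of 3.85 at 12 h, 6.29 at 24 h, 11.4 at 3 days and 12.5 in satellite cells. The satellite cell peaks lie at chr11:81848743-81849326, with its centre at -39 bases from the Ccl2 start, and at chr11:81858979-81859461, with its centre at 6 bases from the Ccl7 start. In +Dox cells the Ccl2 peak was a different stretch, with its centre at -907 bases from the start. Cxcl5, the other member called on withdrawal, showed no such order, at 3.44 in +Dox, 3.27 at 12 h, 4.81 at 24 h, 4.07 at 3 days and 9.96 in satellite cells. Members at 0 in iPax7 RNA could show it, since Cxcl14 stood at 3.10, 4.79, 6.17 and 13.0 over the same iPax7 sets and at 7.42 in satellite cells. Ccl8, also not counted in iPax7 RNA, had a peak inside the gene of 2.75 in +Dox, 8.53 at 12 h, 13.2 at 24 h and 17.7 at 3 days, and none in satellite cells. With 1 peak set per condition, these differences carry no error.

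Cxcl1 had a peak in all 5 sets, with a fold enrichment of 5.26 to 11.3 in iPax7 cells and 32.8 in satellite cells (chr5:91319570-91320878). Cxcl2 had a peak in satellite cells only (13.3), and Cxcl3, which was as clearly a satellite cell transcript, had peaks in the 4 iPax7 sets (2.80 to 5.09) and none in satellite cells. Cxcl16 and Cxcl11 had a peak in satellite cells only, at 9.96 and 3.32. Cxcl12 had peaks throughout, at 4.91 to 15.0 in iPax7 cells and 7.42 in satellite cells. The value of 15.0, at 24 h, belonged to a different stretch, with its centre at -1324 bases from the start. Ccl25 had the strongest peaks of the members in the 4 iPax7 sets, at 34.1 to 61.6, and stood at 30.7 in satellite cells, below Cxcl1.

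**Figure D4:**
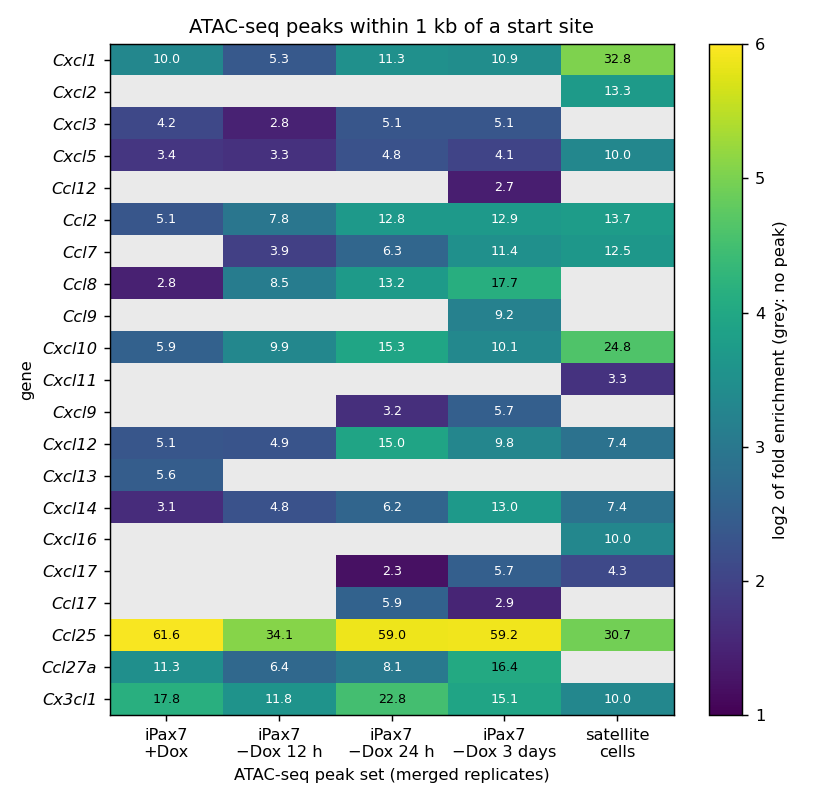
Fold enrichment, as the authors' peak caller gave it, of the strongest ATAC-seq peak within 1 kb of a start site for the 21 members with a peak in any of 5 peak sets, with colour on a log2 scale and grey for no peak. Values at Ccl2 went from 5.08 to 12.9 and at Ccl7 from no peak to 11.4 over 3 days without Dox, and Cxcl2 and Cxcl16 had a peak in satellite cells only.

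H3K27me3, a mark of Polycomb-repressed chromatin, lay within 1 kb of a start site at 16 of 38 members (42.1%) in both +Dox and -Dox cells, against 23.2% and 21.2% of all genes. The members with this mark in +Dox cells included Ccl4, Ccl5, Ccl6, Ccl9, Cxcl2, Cxcl5, Cxcl9, Cxcl10, Cxcl12, Cxcl14 and Cxcl16. Cxcl5, Ccl12 and Cxcl17 carried it in +Dox and not in -Dox cells, and Ccl3, Cx3cl1 and Cxcl13 in -Dox and not in +Dox cells. The H3K27me3 peak set of -Dox cells is the smaller, at 139870 peaks against 178271. The active promoter mark H3K4me3 was found at 11 members (28.9%) in +Dox and 18 (47.4%) in -Dox cells, against 62.7% and 68.8% of genes, and the -Dox peak set is the larger, at 214172 peaks against 94067. Ccl2 and Ccl7 had an H3K4me3 peak in -Dox and not in +Dox cells, as did Ccl8, Ccl9, Cxcl9, Cxcl14 and Cxcl17. H3K27Ac, a mark of active regulatory regions, was found at 5 members in +Dox (13.2%, against 50.3% of genes) and 6 in -Dox (15.8%, against 47.2%). Ccl2 and Ccl27a had it in -Dox only, and Cx3cl1 in +Dox only. H3K4me1 was found at 11 members in +Dox and 17 in -Dox cells (28.9% and 44.7%, against 64.3% and 67.8%). Histone marks of satellite cells were not analysed here.

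No member had a Pax7 peak within 1 kb of a start site, where 342 of 20660 genes (1.66%) did. Of the 2455 Pax7 peaks of +Dox cells, the nearest to a member lay 7.4 kb from the start of Cxcl16, at chr11:70265121-70265965. A Pax7 peak at chr5:91261380-91262083 lay within the Cxcl cluster, its centre at 46.6 kb from the start of Cxcl3, 73.3 kb from that of Cxcl5 and -58.5 kb from that of Cxcl1, where a minus sign means upstream. Within 50 kb of a start site there were 3 members (Cxcl3, Cxcl15 and Cxcl16) of 38, where 11.7% of genes had a Pax7 peak at that distance, and within 100 kb there were 7, where 19.5% did. The nearest peak to Ccl2 and Ccl7, at chr11:81736464-81736897, lay at -112.4 and -122.5 kb.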

How the data were processed

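RNA was sequenced in 8 libraries, and the deposited files hold raw read counts per gene symbol. Per the submitters' processing notes, the tools used across the series were Trimmomatic 0.32, TopHat2 2.0, Bowtie2 (2.2 and 2.2.6), HTSeq 0.6, MACS2 2.0.10, Picard and edgeR, with mm9. Strand use in counting is not given in the sources used here. Totals on genes were 39010958 to 54674619 counts per library, and no molecular identifiers were used, so intervals and floors cover counting error only. Replicates differed by far more than sampling noise (mean chi-square per gene of 49.3 or more). The deposited ATAC-seq peak files give a fold enrichment and −log10 p-values and q-values from the authors' peak caller, and the ChIP-seq files give positions only. For ATAC-seq and histone marks the authors merged replicates before calling peaks, and for Pax7 they kept peaks shared by several +Dox replicates and absent without Dox.

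All 3 groups were fitted together with edgeR 4.0.16 (R 4.3.3) on TMM-normalized counts. After filterByExpr, 14836 genes were tested with the quasi-likelihood test and Benjamini-Hochberg adjustment, and a call needed an adjusted p under 0.05 and a 2-fold change. The scripts were tested on simulated data. Members whose normalized counts averaged 50 or more in any group, or that were called in any comparison, were named with every library's value, and from each pathway list up to 4 genes called with the largest changes per comparison and the receptors of the named ligands. Other list genes, such as Ikbkg, Ifngr2, Cxcr5 and Ackr4, were named after their values were seen. The members and gene lists were chosen with earlier results of these data known. Promoters were the 1000 bases on either side of GENCODE M1 start sites on NCBIM37. Ccl28 is not in that annotation, and Cxcl11 is listed there without a coding transcript. Alternatives were DESeq2 1.42.0, other normalization and filters, only the groups compared, a replicate block, leaving out each library, a wider promoter window and the stronger ATAC-seq peaks.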

Additional observations from a re-analysis of the deposited data

How the results depend on the processing

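Over the members named in the report, 828 of 901 refitted values kept their direction and side of the threshold, 53 lost a call, 15 gained one and 5 changed sign. The 828 include the values on withdrawal of Ccl3, Ccl4, Ccl6, Ccl8, Ccl9, Cxcl9 and Cxcl14. These genes had no read in either iPax7 group, so those values could not change and say nothing on stability. Calls on withdrawal, 3 in the report, numbered 5 with no filter on low counts, 1 with only the 2 groups compared, 6 by DESeq2 and 1 to 3 when a library was left out. Over all genes, 1134 were called on withdrawal and 2017 by DESeq2. The 18 calls between satellite and -Dox cells became 10 to 19 when a library was left out, with 10 without -Dox library 2 and 11 without -Dox library 1. Signs of the log2 fold change on withdrawal turned for Cxcl16 without +Dox library 2 (-0.03) and -Dox library 1 (-6.75, with values up to 2.64 over the libraries left out), and without -Dox library 1 for Ccl11 (-3.58, up to 3.81) and Cxcl3 (-1.65, up to 7.58). That of Cx3cl1 in satellite cells against +Dox turned without satellite library 1 (-0.65, up to 0.87). The cause was not tested, apart from the smaller number of libraries. Replicate numbers are shared by the groups, but deviations of libraries with the same number correlated at only -0.05 to 0.03. With so few libraries per group, this check could miss a weak pairing and cannot exclude one. With a replicate block, 2, 19 and 16 members were called on withdrawal, in satellite against +Dox and in satellite against -Dox cells. Lone -Dox libraries were assumed to vary like the other groups. Few reads limit the members near 0 in iPax7 cells.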
